A study of Nicotiana tabacum with 12 samples.

Results

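An interaction between the T prefix of the library codes and the stem of those codes was examined across the root transcriptome of tobacco (Nicotiana tabacum). The sample titles name 4 groups, TCR, CR, TWTR and WTR, with 3 libraries each. For each gene model the quantity was a difference of differences, (TCR minus CR) minus (TWTR minus WTR), on log2(FPKM + 1), where FPKM is the fragment number scaled to transcript length and to library size. It is positive where the T-prefixed group lies further above its partner in the CR stem than in the WTR stem, and negative in the opposite case. Gene models were taken by 1 rule, an average of 1 FPKM or more across all 12 libraries, which kept 19929 of the 25273 models in the deposited table.

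The codes are not spelled out in the labels, and no genotype, nitrogen supply or treatment was assigned to T, CR or WTR. All 12 libraries carry the same text, which describes roots of an NtLHT1 mutant after 15 days of hydroponic culture in LN solution. That text therefore gives no difference between the groups, and the plant line, the nature of the mutation, the plant age and the number of plants in a library were not given in the sources used here. Nothing says that libraries of one group came from separate plants, so the p-values below reflect the library-to-library spread alone, and that spread may be technical. The identifiers carry no gene names, and 0 of 25273 were found in the RefSeq gene table of tobacco. The level of NtLHT1 and of any root marker gene was thus not analysed here.

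As background, LHT1 (lysine histidine transporter) proteins carry amino acids across the plasma membrane into plant cells and serve amino acid uptake by roots. Nitrogen shortage is known in roots to alter transcripts of nitrate, ammonium and amino acid transporters and of the enzymes that assimilate nitrogen. In a design of this shape, an interaction marks a transcript whose difference along one factor depends on the other factor, and no single comparison of 2 groups measures it. Each library is a whole root extract, in which fewer cells of a type and less RNA per cell cannot be told apart.

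FPKM gives no fragment totals, so the absolute depth is unknown. From the commonest ratio between low values, the relative depth of CR replicate 2 was estimated at 1.81 with CR replicate 1 set to 1, and that of the others at 0.913 to 1.14. By way of the 10 other libraries the estimate for CR replicate 2 was 1.79 to 1.82 in 9 cases and 0.913 by way of TWTR replicate 1, so it is uncertain. CR replicate 2 also had the fewest models at 0 among the 12 libraries, 2437 against 2966 to 3405 in the others. The number of models at 1 FPKM or more averaged 19620 ± 35.1 in TCR, 19779 ± 29.9 in CR, 19585 ± 48.4 in TWTR and 19444 ± 45.5 in WTR (SD, n = 3 each). This count thus had a difference of differences of its own, of -299 models. The 10 models with the highest means held 6.15% ± 0.0135 of the FPKM sum in TCR, 3.72% ± 0.283 in CR, 6.58% ± 0.132 in TWTR and 5.61% ± 0.419 in WTR (SD, n = 3 each). The part of these shifts in the results below was tested only through the other scalings given with them.

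The T-associated difference was unequal between the stems in 5843 models, 29.3% of those tested (limma moderated test, Benjamini-Hochberg adjusted over all 19929 models, threshold 0.05). The interaction was higher in 2301 of them (11.5% of those tested) and lower in 3542 (17.8%). It reached 2-fold or more in 503 models with a higher value (2.52%) and 1119 with a lower value (5.61%), 4-fold in 77 and 228, and 8-fold in 24 and 72. With a pseudocount of 5 FPKM in place of 1, the counts of 2-fold or more were 301 higher and 583 lower. Higher values made up 39.4% of all calls, but 52.1% after quantile normalization, which gives every library the same distribution of values. Among calls of 2-fold or more the share was 31.0%, against 42.0% after quantile normalization. The excess of lower values thus depended on the scaling of the libraries, while 86.8% of the calls were made again after quantile normalization, each in the same direction.

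**Figure D1:**
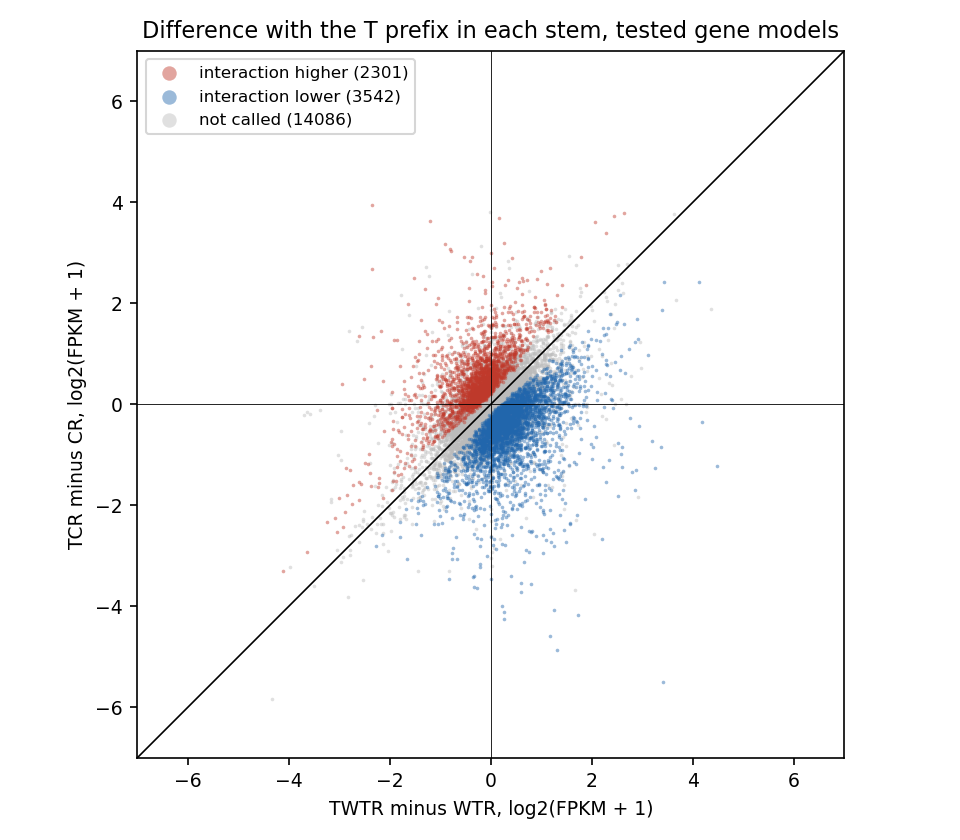
Each point is 1 tested gene model, with TCR minus CR on the vertical and TWTR minus WTR on the horizontal axis, both on log2(FPKM + 1), and the diagonal marks an interaction of 0. The 2301 models called higher lie above the diagonal and the 3542 called lower lie below it, and both clouds extend across the quadrants in which the differences have opposite signs.

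Most interactions were moderate in size. Among the models called, the median absolute interaction was 0.69 on the log2 scale, and 5% of them exceeded 2.04. Over all models tested, the median interaction was -0.05, with quartiles of -0.37 and 0.23. The standard error of the interaction had a median of 0.16 and ran from 0.08 at the 5th to 0.52 at the 95th percentile. Of the 14086 models not called, the 95% interval of the interaction lay within 0.5 log2 units of 0 in 5481 (38.9%). In the others it reached beyond that bound, so an interaction of that size was not bounded by these libraries.

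The direction of the called interactions seldom hinged on single libraries. With 1 library drawn from each group there are 81 ways to form the difference of differences, and in 5309 of the 5843 models called (90.9%) all 81 had the same sign. This share was 91.0% for higher and 90.7% for lower values. Over all models tested it was 29.4%, and over models not called 3.84%. A call needs an interaction that is large against the spread of these same libraries. A high share among calls is therefore favoured by construction. Computed on FPKM without logarithms, the interaction had the opposite sign in 20 of the models called (0.342%), all of which changed in the same direction in both stems. Of the models called, 94 (1.61%) were listed at 0 in at least 1 library, against 749 (3.76%) of all models tested. Of these 94, 93 were among the calls of 2-fold or more (5.73% of those calls).

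Called interactions were sorted by whether TCR minus CR and TWTR minus WTR passed the same threshold in the same fit. Both passed in opposite directions in 1055 models, 18.1% of the interactions called. In 400 of these TCR was above CR while TWTR was below WTR, and in 655 TCR was below CR while TWTR was above WTR; after quantile normalization the counts were 527 and 496. Such crossing nearly forces an interaction call, and all 1055 crossing models had one. Both differences passed in one direction, with unequal size, in 961 models, of which 501 had the larger difference in the CR stem and 460 in the WTR stem. Over all models tested these classes held 1674 and 1493. An interaction was called in 29.9% and 30.8% of them, near the 29.3% of all models tested.

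The largest class held models in which TCR minus CR passed and TWTR minus WTR did not, with 2153 models (36.8%), 897 higher and 1256 lower. The reverse held in 1472 models (25.2%), 483 higher and 989 lower. Only models with a called interaction were counted in these classes. Over all models tested, TCR minus CR passed alone in 4095 and TWTR minus WTR alone in 2801. An interaction was called in 52.6% of each. In the others the unequal calls are not backed by a test of the difference. In 202 models (3.46%) neither difference passed by itself, which was so in 8811 of all models tested. Median absolute interactions were 1.11 in the crossing class, 0.66 where TCR minus CR passed alone, 0.61 where TWTR minus WTR passed alone, and 0.58 and 0.60 in the classes with one direction, larger in the CR stem and in the WTR stem. Whatever their own calls, the estimated differences had opposite signs in 1375 models with TCR above CR (23.5% of calls) and 2211 models with TCR below CR (37.8%). A called interaction favours opposite signs by construction, and these shares were not computed over all models tested.

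**Figure D2:**
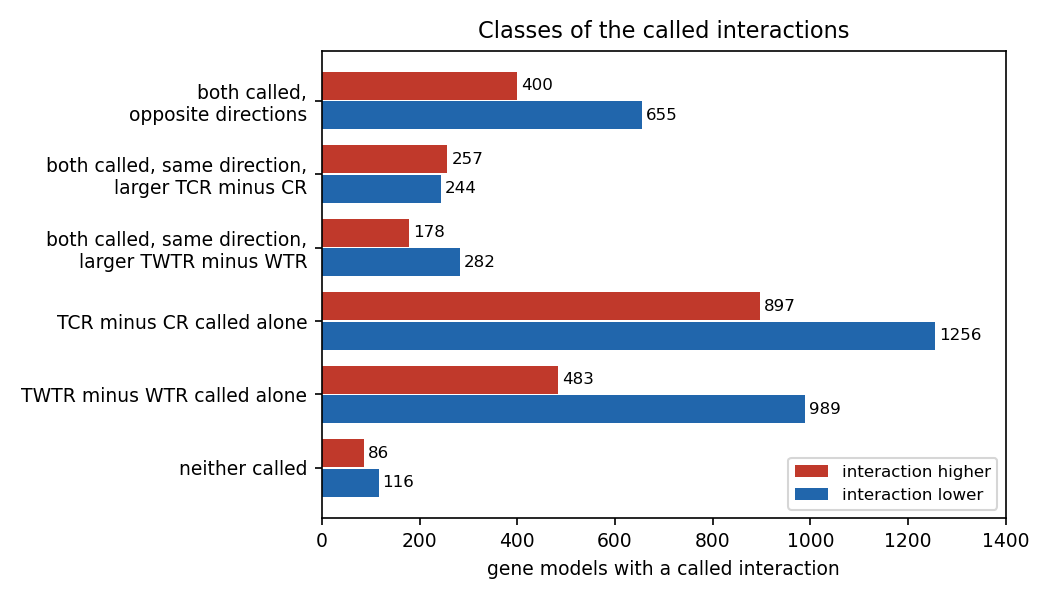
Bars count the gene models with a called interaction by the calls of TCR minus CR and TWTR minus WTR, split into higher (upper bar) and lower (lower bar) interactions. Models in which TCR minus CR passed alone form the largest class, with 897 higher and 1256 lower, and crossing models number 400 and 655.

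Profiles over the 4 groups were followed in models named by rule. These had values above 0 in every library, an average of 5 FPKM or more in the highest group, and the same sign over all 81 library choices. Among the 1996 models with a higher interaction that met these conditions, the largest value was in Nitab4.5_0003558g0020. It stood at 66.34, 59.2 and 55.98 FPKM in TCR and 2.95, 2.81 and 7.06 in CR, and at 42.52, 18.11 and 19.17 in TWTR and 73.48, 57.84 and 45.31 in WTR. TCR and WTR libraries were thus high and CR libraries low, with no overlap within either stem. The interaction was 4.83 (SE 0.51, limma adjusted p 7.36e-05), a ratio of ratios of 28.5 on the FPKM + 1 scale.

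Nitab4.5_0001039g0010 had the same shape with a tighter spread. It was at 45.34, 47.28 and 49.04 FPKM in TCR against 4.02, 4.86 and 4.23 in CR, and at 35.2, 35.11 and 35.5 in TWTR against 65.67, 68.46 and 67.04 in WTR. Every group was clear of the others, and CR was far below all of them. The interaction was 4.08 (SE 0.09, limma adjusted p 3.37e-10).

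Among the 2958 models with a lower interaction that met the conditions, Nitab4.5_0000919g0090 had the most negative value. It was at 1.45, 2.75 and 1.43 FPKM in TCR against 62.53, 69.77 and 67.98 in CR, and at 4.08, 2.91 and 2.6 in TWTR against 0.73, 1.1 and 0.73 in WTR. High values were found in CR libraries alone. At low levels, TWTR was above WTR by 1.17 log2 units (SE 0.18, limma adjusted p 0.000377). The interaction was -5.76 (SE 0.26, limma adjusted p 3.42e-08). With pseudocounts of 0.1 and 5 FPKM it was -6.93 and -3.87.

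Nitab4.5_0000109g0460 reached a similar size through the WTR stem. It was at 3.48, 3.29 and 4.76 FPKM in TCR against 12.83, 8.86 and 9.17 in CR, and at 31.52, 34.84 and 27.74 in TWTR against 0.39, 0.19 and 0.84 in WTR. TWTR was highest, CR came next, and WTR was close to 0 in all 3 libraries. The interaction was -5.69 (SE 0.27, limma adjusted p 4.8e-08), and it was -7.33 and -3.51 with pseudocounts of 0.1 and 5 FPKM.

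Crossing was most pronounced, by the smaller of the T-associated differences, in 4 further models. Nitab4.5_0004599g0060, an abundant transcript, stood at 1100.25, 1097.62 and 1090.26 FPKM in TCR against 343.17, 340.34 and 344.81 in CR, and at 576.47, 557.63 and 545.39 in TWTR against 1453.23, 1457.9 and 1460.92 in WTR. TCR was above CR by 1.67 log2 units (SE 0.04), while TWTR was below WTR by a difference of -1.38 (SE 0.04). The interaction was 3.05 (SE 0.05, limma adjusted p 3.31e-11), and the libraries within each group differed by a few percent of their level.

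Nitab4.5_0000500g0190 crossed in the same sense at a similar abundance. It was at 612.16, 604.33 and 619.93 FPKM in TCR against 227.18, 260.55 and 227.05 in CR, and at 258.87, 269.03 and 287.15 in TWTR against 1763.42, 1563.22 and 1650.05 in WTR. The highest level was in WTR, and CR and TWTR lay close together at the low end with libraries that overlapped in range. The interaction was 3.97 (SE 0.09, limma adjusted p 3.37e-10).

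In the opposite sense, Nitab4.5_0000114g0140 was at 13.47, 11.62 and 11.4 FPKM in TCR against 85.58, 80.55 and 80.15 in CR, and at 12.45, 8.81 and 11.67 in TWTR against 1.42, 1.37 and 1.98 in WTR. The T-prefixed groups met at a middle level, between a high CR and a low WTR. The interaction was -4.87 (SE 0.18, limma adjusted p 1.05e-08). Nitab4.5_0001421g0030 likewise had CR highest, WTR lowest and the T-prefixed groups between them, with more spread. It was at 58.29, 38.37 and 39.54 FPKM in TCR against 229.82, 121.93 and 160.44 in CR, and at 49.84, 59.64 and 39.8 in TWTR against 10.8, 7.13 and 26.18 in WTR. Its groups did not overlap within either stem, and the interaction was -3.73 with the largest standard error among the models named (0.58, limma adjusted p 0.0011).

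**Figure D3:**
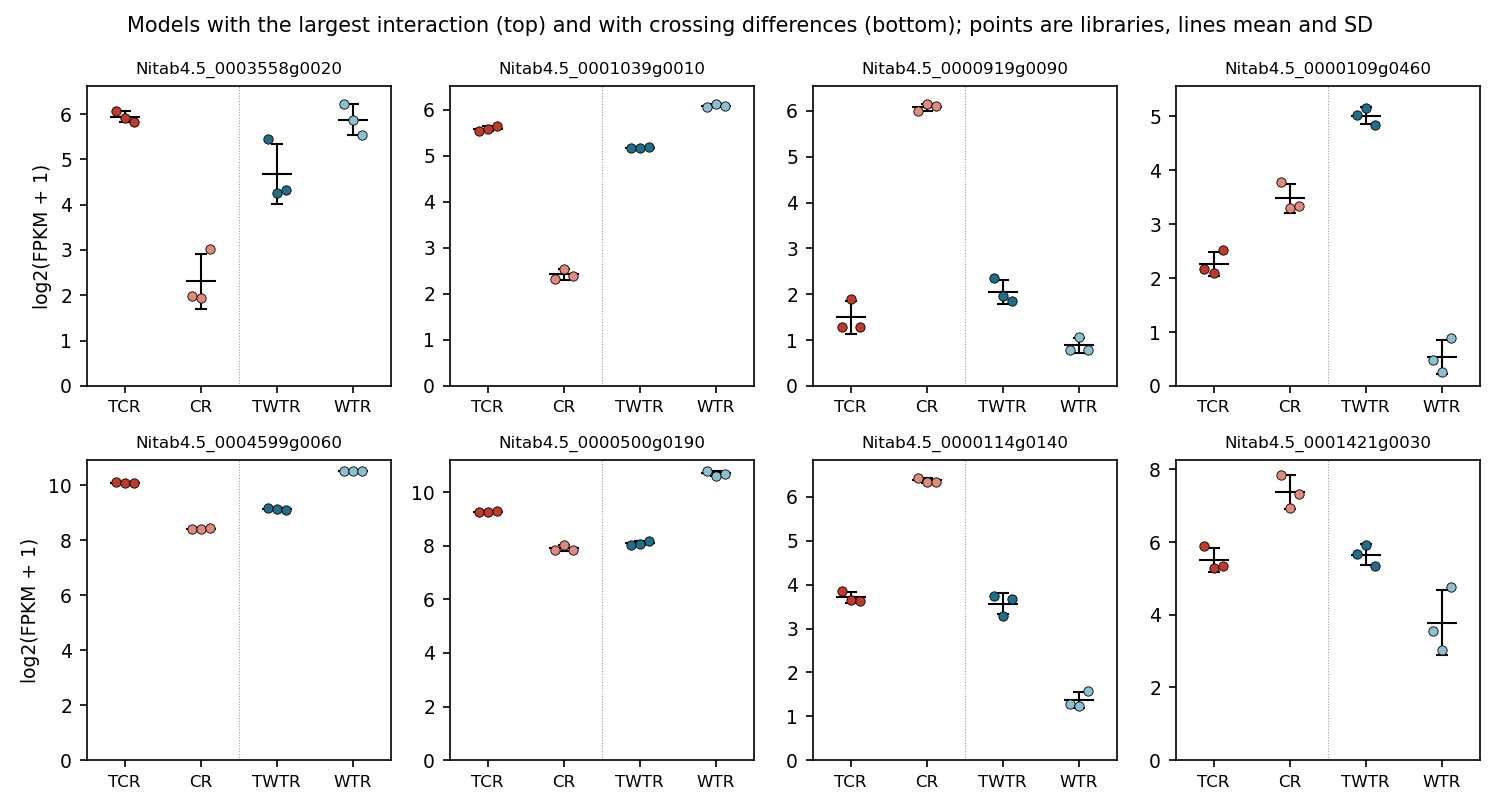
Points are single libraries, horizontal lines group means and bars the SD (n = 3) on log2(FPKM + 1), with the CR stem left and the WTR stem right of the dotted line. The upper row has the models with the largest interactions and the lower row those with the strongest crossing; TCR is above CR while TWTR is below WTR in the left pair of each row, and the opposite in the right pair.

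Among models that averaged 100 FPKM or more, 483 with a higher and 490 with a lower interaction met the conditions. Nitab4.5_0000500g0190, described above, and Nitab4.5_0001735g0060 had the largest positive values. Nitab4.5_0001735g0060 was at 298.1, 290.91 and 282.63 FPKM in TCR against 33.36, 34.52 and 32.27 in CR, and at 199.14, 256.01 and 234.64 in TWTR against 396.99, 376.98 and 431.12 in WTR. CR was far below all other libraries, and the interaction was 3.89 (SE 0.12, limma adjusted p 1.61e-09).

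The most negative value at this abundance was in Nitab4.5_0001495g0130, at 29.91, 36.22 and 38.11 FPKM in TCR against 629.54, 566.81 and 509.11 in CR, and at 38.94, 28.97 and 24.74 in TWTR against 24.96, 24.62 and 27.66 in WTR. Only the CR libraries were high, and TWTR and WTR overlapped. TWTR minus WTR was 0.23 and did not pass (limma adjusted p 0.257), whereas the interaction was -4.23 (SE 0.21, limma adjusted p 1.05e-07). Nitab4.5_0000033g0360 combined both stems. It was at 95.04, 85.16 and 90.07 FPKM in TCR against 280.38, 173.68 and 230.87 in CR, and at 156.09, 145.75 and 151.27 in TWTR against 16.72, 21.01 and 21.77 in WTR. Each group was clear of the others, and the interaction was -4.18 (SE 0.21, limma adjusted p 1.16e-07).

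Among the 961 models with differences of unequal size in one direction, the 4 named for the largest interactions all had the larger difference in the CR stem. They do not stand for the 961, of which 501 had the larger difference in the CR stem and 460 in the WTR stem. Median absolute interactions were 0.58 and 0.60. Nitab4.5_0002950g0060 was at 217.42, 231.46 and 232.27 FPKM in TCR against 23.8, 21.36 and 26.65 in CR, and at 145.63, 137.72 and 139.62 in TWTR against 108.98, 127.53 and 117.85 in WTR. The T-prefixed group was above its partner in both stems, by 3.20 log2 units between TCR and CR and 0.26 between TWTR and WTR, and the interaction was 2.94 (SE 0.11, limma adjusted p 1.05e-08). Nitab4.5_0001478g0040 was at 691.13, 675.97 and 695.97 FPKM in TCR against 117.43, 126.35 and 127.13 in CR, and at 549.87, 531.41 and 597.78 in TWTR against 449.9, 442.33 and 430.66 in WTR. Here too CR alone was far from the other groups, with an interaction of 2.13 (SE 0.07, limma adjusted p 8.25e-09).

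Falls of unequal size had the same form. Nitab4.5_0001486g0010 was at 155.89, 153.24 and 169.94 FPKM in TCR against 2014.6, 1617.18 and 1571.3 in CR, and at 135.86, 133.5 and 124.8 in TWTR against 163.42, 167.35 and 170.57 in WTR. CR was about an order of magnitude above every other group, and the interaction was -3.08 (SE 0.12, limma adjusted p 1.18e-08). Nitab4.5_0000915g0150, a low transcript, was at 1.08, 0.46 and 0.69 FPKM in TCR against 11.8, 17.79 and 11.58 in CR, and at 1.23, 0.76 and 1.24 in TWTR against 2.16, 2.19 and 2.55 in WTR. Its interaction was -2.39 (SE 0.27, limma adjusted p 4.81e-05), and -3.02 and -1.43 with pseudocounts of 0.1 and 5 FPKM.

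Parallel T-associated differences, the counterpart of an interaction, were sought by interval rather than by a missing call. Both differences passed in the same direction in 3167 models, and the 95% interval of the interaction lay within 0.5 log2 units of 0 in 1471 of them, 762 with the T-prefixed group higher and 709 with it lower in both stems. In 93 of the 1471 the interaction was still called, at a size within the bound. The largest parallel differences upward were in Nitab4.5_0002145g0030 and Nitab4.5_0000040g0270. Nitab4.5_0002145g0030 was at 43.18, 43.8 and 41.98 FPKM in TCR against 5.08, 5.71 and 5.41 in CR, and at 53.95, 58.4 and 57.58 in TWTR against 6.91, 10.22 and 7.02 in WTR. TCR minus CR was 2.78 and TWTR minus WTR 2.69 log2 units, and the interval of the interaction was -0.27 to 0.45. Nitab4.5_0000040g0270 was at 117.45, 123.76 and 123.67 FPKM in TCR against 21.05, 18.74 and 22.36 in CR, and at 127.97, 141.2 and 143.86 in TWTR against 26.7, 20.47 and 22.86 in WTR, with an interval of -0.30 to 0.27.

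Downward, Nitab4.5_0000446g0010 was at 14.91, 19.62 and 15.88 FPKM in TCR against 137.67, 140.15 and 150.41 in CR, and at 8.39, 8.81 and 11.07 in TWTR against 83.82, 77.76 and 72.82 in WTR. Its levels differed between the stems, but TCR minus CR was -3.02 and TWTR minus WTR -2.93 log2 units, with an interval of the interaction of -0.43 to 0.25. Nitab4.5_0005206g0010 was at 23.59, 24.77 and 23 FPKM in TCR against 181.86, 179.9 and 185.15 in CR, and at 16.01, 17.11 and 14.38 in TWTR against 144.26, 127.13 and 143.1 in WTR. The interval was -0.05 to 0.38. In all 4 models the T-prefixed and other libraries were far apart in both stems.

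**Figure D4:**
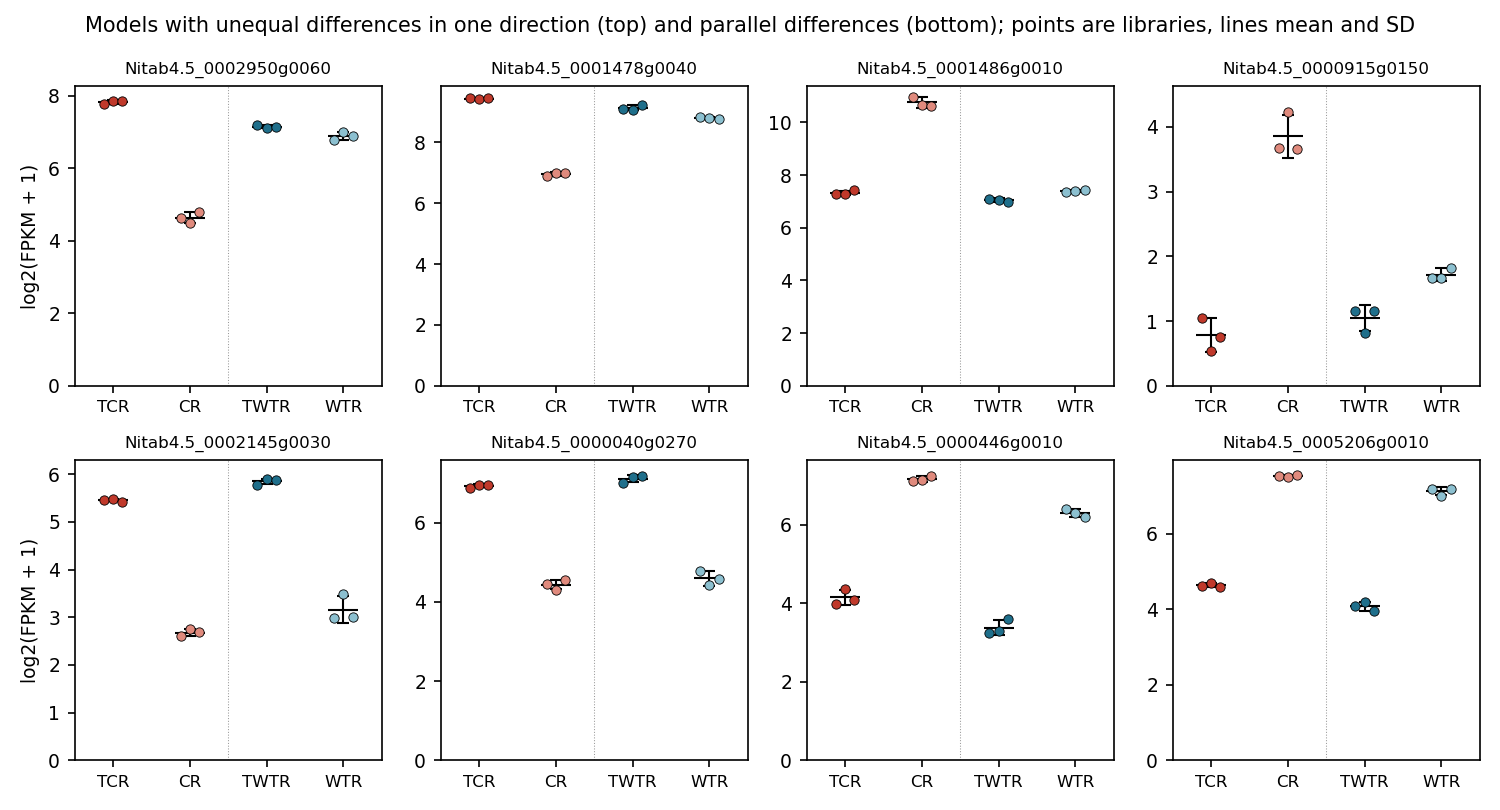
Points are single libraries, horizontal lines group means and bars the SD (n = 3) on log2(FPKM + 1), with the CR stem left and the WTR stem right of the dotted line. In the upper row CR alone is far from the other groups, and in the lower row, with intervals of the interaction within 0.5 of 0, the step between the T-prefixed group and its partner is alike in both stems.

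The same interaction can be read as a change of the gap between stems. The absolute gap between TCR and TWTR was smaller than that between CR and WTR in 4642 of the models called (79.4%), and in 64.4% of all models tested. The share among calls was 79.7% for higher and 79.3% for lower interactions. Median absolute gaps in the models called were 0.20 log2 units between TCR and TWTR and 0.54 between CR and WTR; over all models tested they were 0.16 and 0.25. By contrast, the T-associated gaps were closer to each other, with medians of 0.46 between TCR and CR and 0.35 between TWTR and WTR in the models called. The interaction is also TCR minus TWTR less CR minus WTR, so a call favours stem gaps of unequal size. The stronger narrowing among calls than over all models tested thus follows in part by construction.

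The order of the 4 group means showed which groups took the extremes. Among higher interactions the commonest order, from high to low, was WTR, TCR, TWTR and CR, in 544 models (23.6%). Among lower interactions it was the exact reverse, CR, TWTR, TCR and WTR, in 790 models (22.3%). These orders held in 4.27% and 5.90% of all models tested, and a called sign of the interaction favours them by construction. CR and WTR formed the extremes, in either order, in 2019 of the models called (34.6%), against 19.9% of those tested.

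Libraries of a single group often stood clear of all others. TCR lay above all 9 other libraries in 274 and below them in 255 of the models called, or 9.05% together. CR lay above the rest in 1738 and below in 1210 (50.5%), TWTR in 710 and 441 (19.7%), and WTR in 736 and 1301 (34.9%), and a model can count for more than 1 group. Over all models tested the shares were 4.98% for TCR, 27.3% for CR, 13.6% for TWTR and 13.9% for WTR. CR thus stood apart most often among all models tested too. A group apart from the rest favours an interaction call, so higher shares among calls follow in part by construction. All TCR and WTR libraries lay above all CR and TWTR libraries in 366 of the models tested, all with a called interaction. The opposite held in 477, of which 472 had a called interaction. Such a separation nearly forces the call.

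Calls became more frequent with abundance. The interaction passed in 16.8% of models with a mean of 1 to 5 FPKM, 26.3% from 5 to 20, 34.5% from 20 to 100 and 46.2% at 100 FPKM and more, while its median standard error fell from 0.29 to 0.10 log2 units between the ends of this range. Higher values made up 25.5% of calls in the lowest bin and 49.6% in the highest. After quantile normalization these shares were 43.4% and 54.4%, and without CR replicate 2, the library with the fewest models at 0, they were 25.8% and 49.4%. The excess of lower values was thus largest among low transcripts, and its size there depended on the scaling. Crossing was found at every abundance. From the lowest to the highest bin it held in 105 of 4240, 308 of 6602, 417 of 6836 and 225 of 2251 models tested. Its share thus rose with abundance, like that of all calls. At the edge of the abundance filter, 27 of the 191 models with a mean of 1 to 1.1 FPKM would be called in a fit without that filter (14.1%), and 19 of the 180 from 0.9 to 1 FPKM (10.6%).

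**Figure D5:**
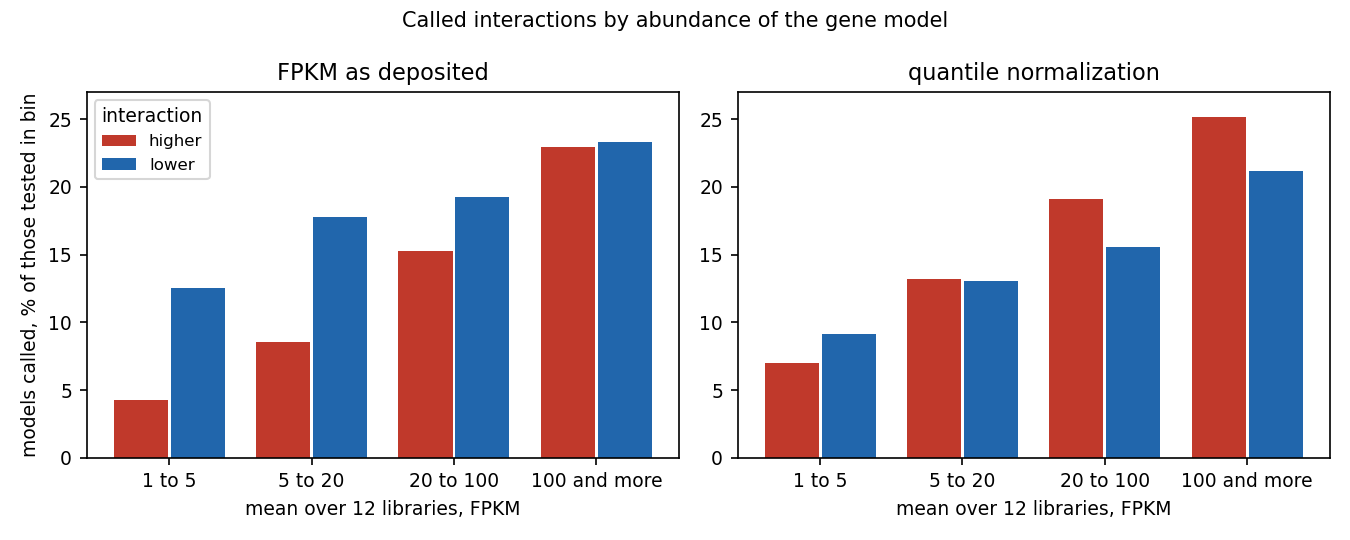
Bars give the percentage of tested models called with a higher (left bar) or lower (right bar) interaction in 4 bins of mean FPKM, for the values as deposited and after quantile normalization. Calls increase with abundance under both scalings, and the excess of lower values in the lowest bin is smaller after normalization, where higher values make up 43.4% of its calls in place of 25.5%.

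The weight of the interaction against the main differences was read from sums of squares of log2(FPKM + 1), which split exactly in this balanced layout. Differences between the 4 groups held 66.2% of the total sum of squares over all models tested, and the spread within groups 33.8%. Of the between-group part, the interaction held 25.2%, the stem 26.7% and the T prefix 48.1%. After subtraction of the amount expected from the within-group spread the parts were 23.3%, 25.1% and 51.5%. The interaction was the largest of the 3 parts in 5335 of the models tested (26.8%) and in 2851 of those called (48.8%). A call needs a large interaction, so the higher share among calls follows in part by construction.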

How the data were processed

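Root RNA of 12 libraries was sequenced, 3 in each of the groups TCR, CR, TWTR and WTR, taken from the sample titles. Per the labels' protocols, the authors enriched mRNA, ran a DNBSEQ-T7 instrument, cleaned reads with fastp, aligned them with STAR, assembled with StringTie2 and compared the assembly with known genes by Cuffcompare; the genome build, the annotation release and the program that made the abundance values are not given in the sources used here. The values are the authors' deposited FPKM, per the file headers, for 25273 gene models in 1 table. FPKM divides by transcript length and library total, so a few abundant transcripts can shift all others, and reads of near-identical copies in this allotetraploid may be split in ways the table does not record. Count tools, named in the submitters' design text, were not used because they need counts.

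Values were transformed to log2(FPKM + 1), which understates differences of low models. The 4 group means were estimated jointly from the 12 libraries with limma 3.58.1 in R 4.3.3 (trend and robust options), for models averaging 1 FPKM or more; 5344 models fell below. P-values are two-sided and adjusted by Benjamini-Hochberg over all 19929 models, with a threshold of 0.05. The procedure was tested on simulated data. Relative depth was the commonest ratio among values of at least 0.2 FPKM in models at 0 in at least 4 libraries.

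Named models passed the interaction test, were above 0 in every library, reached a mean of 5 FPKM in a group and kept 1 sign over all 81 library choices. The 2 largest positive and 2 largest negative interactions were taken among all such models, among those averaging at least 100 FPKM and among those with both T-associated differences called in one direction; crossing models were ranked by their smaller difference. Parallel models were ranked likewise, without the conditions on the interaction test and its sign. The rule gave 19 models. Members, rules and lists were chosen with earlier results of these data known. Lists by gene product were not used, since no identifier could be named.

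Alternatives were pseudocounts of 0.1 and 5 FPKM, no filter or a mean of at least 5 FPKM, rescaling to TPM, median-of-ratios scaling, quantile normalization, limma without trend and robust options, array weights, a replicate block, and each library left out in turn. Scaling on the sum without the 10 most abundant models was added after seeing the data.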

Additional observations from a re-analysis of the deposited data

Results flagged for a closer look

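Every interaction past the threshold is, by definition, an effect of one contrast that differs between the stems, as tested by the interaction term. The interaction was higher in 2301 models and lower in 3542. The named models below had to pass that test to be named. On the log2 scale, (TCR minus CR) minus (TWTR minus WTR) was 4.83 for Nitab4.5_0003558g0020, 4.08 for Nitab4.5_0001039g0010, -5.76 for Nitab4.5_0000919g0090 and -5.69 for Nitab4.5_0000109g0460, the models with the largest values among those above 0 in every library that met the other naming conditions. It was 3.05 for Nitab4.5_0004599g0060, 3.97 for Nitab4.5_0000500g0190, -4.87 for Nitab4.5_0000114g0140 and -3.73 for Nitab4.5_0001421g0030, which were named for the strongest crossing. Among models averaging 100 FPKM or more it was 3.89 for Nitab4.5_0001735g0060, -4.23 for Nitab4.5_0001495g0130 and -4.18 for Nitab4.5_0000033g0360. Among models with differences in one direction it was 2.94 for Nitab4.5_0002950g0060, 2.13 for Nitab4.5_0001478g0040, -3.08 for Nitab4.5_0001486g0010 and -2.39 for Nitab4.5_0000915g0150.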

How the results depend on the processing

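Of the 23 alternatives, 14 of the 15 models named for a called interaction were tested in all and Nitab4.5_0000915g0150 in all but the filter at a mean of 5 FPKM, and each kept its call and direction wherever tested. They were named for large called values of 1 sign over all library choices, so their direction could not change when a library was left out, and this says little about other models. The 4 parallel models stayed uncalled in all 23. The counts of higher and lower calls, of crossing models in each direction and of wider and narrower stem gaps stayed within 1.5 times the reported values. With a pseudocount of 5 FPKM the calls of 2-fold or more dropped to 301 higher and 583 lower. Between 83.3% and 98.9% of the calls were made again in the same direction, and none in the opposite direction. The share with a narrower stem gap with T was 75.8% to 81.4%, and the interaction held 24.0% to 26.8% of the between-group sum of squares. With the replicate block, 2148 models were higher and 3339 lower. The labels give the number no meaning as a pair: correlations of same-numbered libraries' deviations from their group means ran from -0.0888 to 0.0991, none of 18 over 0.1, against -0.183 to 0.216 for other numbers. Set against each other group, a library correlated best with its own number in 15 of 36 cases. Higher values made up 38.3% to 52.1% of calls, 47.1% with median-of-ratios scaling and 44.9% on the sum without the 10 most abundant models.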

Other observations

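Called interactions were compared between models with consecutive identifiers on one scaffold. Of 11834 such pairs of tested models, 1047 had both interactions called (8.85%). The interactions had the same direction in 643 of these pairs (61.4%), against 60.4% in 374 pairs that lay 10 tested models apart on a scaffold, and 52.3% would follow from the split of directions alone. A model next to a called one was itself called in 30.6% of cases, close to the 29.3% of all models tested. The longest run of consecutive identifiers called in one direction held 5 models, Nitab4.5_0000008g0840 to Nitab4.5_0000008g0880, singled out after its values were seen. Their interactions were all lower, from -1.63 to -0.26, with a median of -0.77.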
